A study of Homo sapiens with 6 samples.

Results

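The BCL2 family members outside the classical p53 targets were examined by RNA-seq in U2OS cells, a human osteosarcoma cell line, after depletion of the histone demethylase LSD1. The members were found by gene symbol and were 10 of the 15585 genes with deposited read counts. They comprise 4 pro-survival genes (BCL2, BCL2L1, BCL2L2 and MCL1) and 6 pro-death genes (BAK1, BCL2L11, BID, BAD, BMF and BIK). Cells received a control siRNA (siCTR, 3 libraries) or an siRNA against LSD1 (siLSD1, 3 libraries), and bulk total RNA was taken 48 h after transfection. The study asked how LSD1 acts in DNA replication, and the RNA-seq gives the transcripts that differ when LSD1 is reduced. Which of the study's LSD1 siRNAs was used is not given in the sources used here, and neither is whether the 3 libraries of a group came from separate cultures, so p-values measure the spread between these libraries, which may be technical.

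BCL2 family proteins control the permeability of the outer mitochondrial membrane, the step that commits a cell to intrinsic apoptosis. Pro-survival members hold the pore-forming effectors BAX and BAK1 in check, and BH3-only members bind the groove of the pro-survival proteins or activate the effectors directly. Much of this control lies in protein stability, phosphorylation and binding, which transcript levels do not measure.

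Counted reads numbered 12855558, 13026699 and 13444230 for siCTR replicates 1 to 3, against 13292468, 12513511 and 13561344 for siLSD1 replicates 1 to 3. KDM1A (chr1:23019443-23083689, + strand, GRCh38), which encodes LSD1, drew 6140, 6493 and 6573 reads under siCTR, against 1110, 1198 and 1246 under siLSD1. The siRNA labels and the target transcript therefore matched in all 6 libraries, with a log2 fold change (siLSD1 over siCTR) of −2.44 (SE 0.11, adjusted p = 2.27e-07, edgeR quasi-likelihood test with Benjamini-Hochberg adjustment). Of 6 mesenchymal or osteoblast markers, VIM was by far the most abundant, at 395 to 464 FPKM (reads per kilobase of gene, scaled to the reads of the library). RUNX2, with 0 to 4 reads, and SPARC, with 0 to 3 reads, were close to 0 in every library, and 4 of the 6 markers passed the filter on low counts. The summed level of these 6 markers was 400 to 467 FPKM. Epithelial markers summed to 2.36 to 3.5 FPKM per library, nearly all from EPCAM and CDH1, with KRT5 at 0 to 1 reads. CDH1 drew 95, 80 and 66 reads under siCTR, against 154, 117 and 143 under siLSD1 (log2 fold change 0.77, SE 0.19, adjusted p = 0.0699, edgeR quasi-likelihood with Benjamini-Hochberg adjustment). EPCAM drew 29, 41 and 31 reads under siCTR, against 28, 35 and 34 under siLSD1, with overlapping groups and a log2 fold change of −0.06 (SE 0.27). The blood marker PTPRC was at 0 to 1 reads. In bulk RNA, fewer cells of a kind and less RNA per cell cannot be told apart, and the part of CDH1-expressing cells in the results was not tested.

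The libraries of a group were not equally alike. Between siCTR replicates 1 and 3 the chi-square per degree of freedom over genes was 6.75, whereas siCTR replicate 2 differed from them by 27.8 and 21.6. Among the siLSD1 libraries it was 6.19 for replicates 1 and 2, 9.94 for 2 and 3, and 22 for 1 and 3. Reads on GC-rich genes also varied. The median log2 deviation of genes in the highest GC quartile minus that of genes in the lowest was 0.210, −0.033 and −0.081 in siCTR replicates 1, 2 and 3, and 0.306, 0.018 and −0.392 in siLSD1 replicates 1, 2 and 3.

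Levels of different genes were compared in the authors' FPKM, which divides reads by gene length. MCL1, which encodes a short-lived pro-survival protein, had the highest level of the 10 in control cells, with 84.8, 90.9 and 91.2 FPKM, and no siCTR library of another member came near it. BCL2L1, the gene of the pro-survival protein BCL-XL, followed with 34.2 ± 1.78 FPKM (SD, n = 3). The BH3-only genes BAD (29.9 ± 8.11) and BID (25 ± 2.38, both FPKM, SD, n = 3) came next, and neither the BCL2L1 and BAD libraries nor the BAD and BID libraries were separate. BAK1, the effector, lay below BID in every library at 15.7 ± 0.873 FPKM (SD, n = 3).

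The lower part of the order held 2 pro-survival genes. BCL2L2, which encodes BCL-W, was at 6.38 ± 0.64 FPKM and overlapped with BCL2L11, which encodes the BH3-only protein BIM, at 5.62 ± 0.652 FPKM (SD, n = 3 each). BIK, a BH3-only gene whose protein sits mainly at the endoplasmic reticulum, was at 2.84 ± 0.701 FPKM (SD, n = 3). BCL2, the founding member of the family, reached 0.584 ± 0.0499 FPKM and BMF, a BH3-only gene, 0.176 ± 0.0354 FPKM (SD, n = 3 each), both apart from their neighbours. In control cells, 6 of the 9 neighbouring pairs in this order did not overlap. With reads divided by the union of annotated exons in place of the authors' gene lengths, the count was again 6 in siCTR but for other pairs, since BAD and BID no longer overlapped while BID and BAK1 did, and BCL2L11 stood above BCL2L2 within overlapping values.

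The order in siLSD1 cells was the same from MCL1 down to BCL2L2. BCL2L1 and BAD, at 43.7 ± 7.3 and 21 ± 5.28 FPKM (SD, n = 3), no longer overlapped, while BAD and BID, at 20.7 ± 1.26 FPKM, did. BCL2L11, at 3.36 ± 0.248 FPKM, lay below BCL2L2 in every library and level with BIK, at 3.38 ± 0.644 FPKM (SD, n = 3 each). In siCTR cells BCL2L11 had been above BIK in every library. Of the 9 neighbouring pairs in siLSD1, 7 did not overlap in FPKM and 6 with annotated exon lengths, where BAK1 stood above BID within overlapping values.

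**Figure D1:**
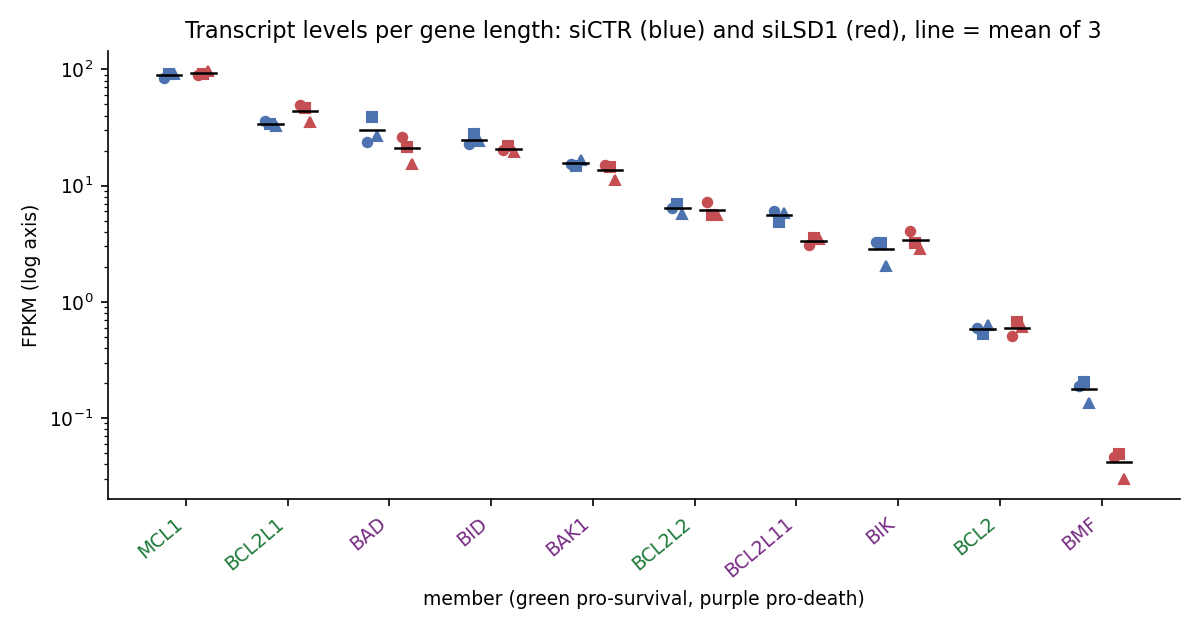
Level of each member in FPKM on a log axis, with siCTR libraries in blue, siLSD1 libraries in red, circles, squares and triangles for replicates 1, 2 and 3, and lines at the mean of 3. MCL1 lies at the top in both groups, BCL2L11 is level with BIK only in siLSD1, and BMF is lowest.

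After the filter on low counts, 11844 genes were tested, 9 of the 10 members among them, and BMF did not pass. At an adjusted p under 0.05, 1 of the 9 tested members was called, BCL2L11, which was lower in siLSD1. Over all genes tested, 171 were called, which is 1.44%, and 0.371% were called as lower. At an unadjusted p under 0.05, 3 of the 9 members (BCL2L11, BID and BAD, all pro-death) were lower in siLSD1, against 6.55% of all genes tested, and 1 member (BCL2L1, pro-survival) was higher, against 7.48%. The number of genes called was 88, 58, 71 and 60 without siCTR replicate 2, siCTR replicate 3, siLSD1 replicate 1 and siLSD1 replicate 2, and BCL2L11 was called in the first of these 4 fits only. Without siCTR replicate 2, the members at an unadjusted p under 0.05 were 2, BCL2L11 and BCL2L1. The siLSD1 libraries lay entirely below the siCTR libraries in TMM-scaled CPM (reads relative to the scaled library size) for 3 of the 9 members, BCL2L11, BID and BAK1, against 9.97% of all genes tested. None of the 9 lay entirely above, against 11.4% of all genes tested. The median log2 fold change was 0.04 over the 4 pro-survival members and −0.28 over the 5 tested pro-death members, and −0.01 over all genes tested.

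**Figure D2:**
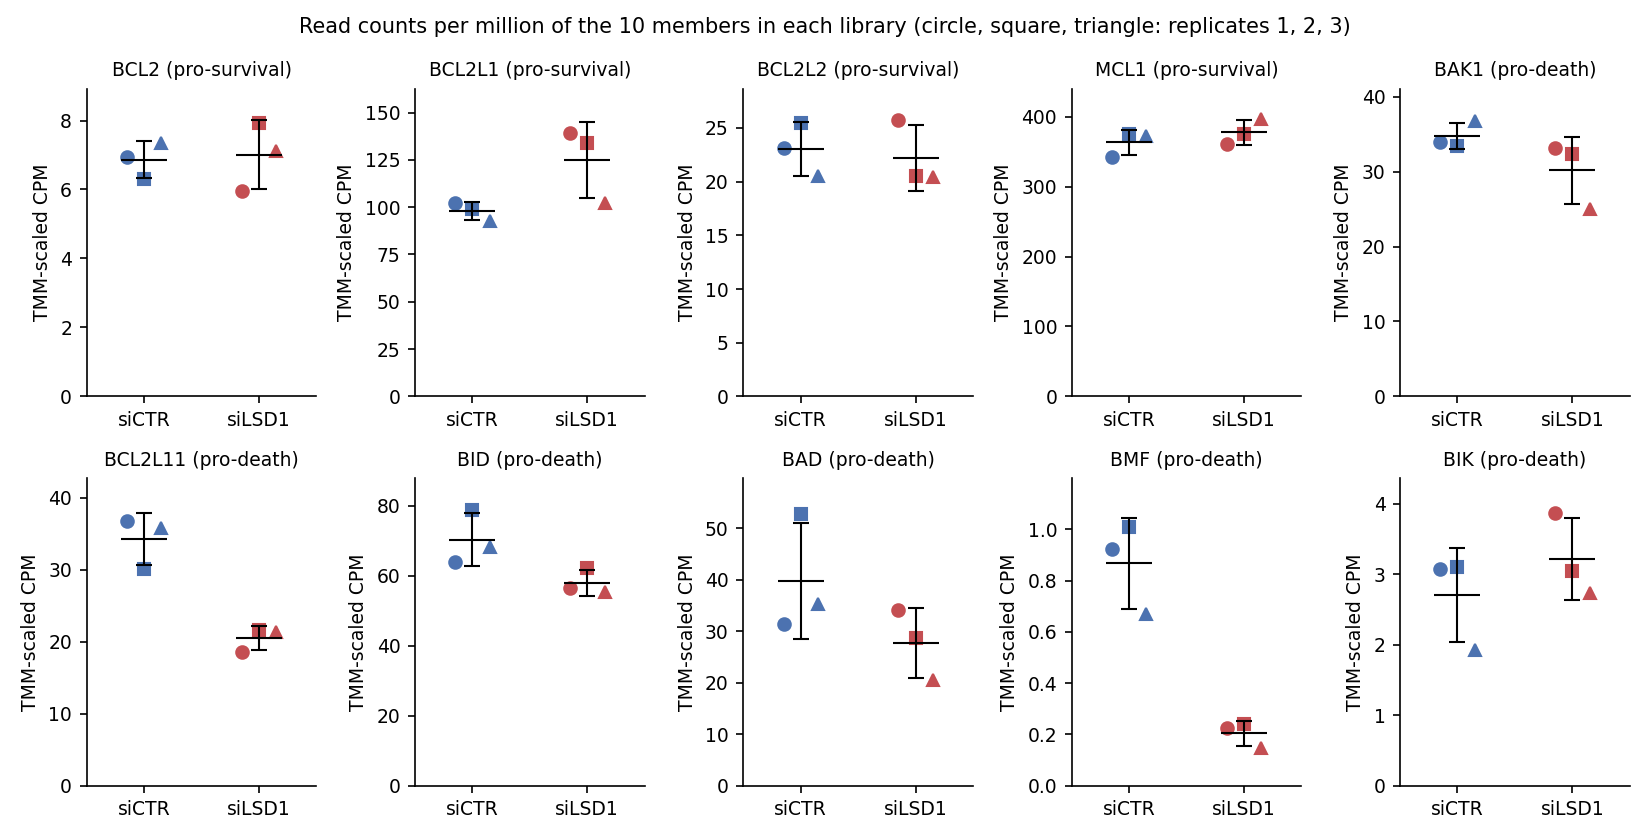
TMM-scaled CPM of the 10 members in each library, with circles, squares and triangles for replicates 1, 2 and 3, lines and bars for the mean ± SD of 3, and all axes starting at 0. The groups are apart for BAK1, BCL2L11, BID and BMF, and overlap for the other 6 members.

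BCL2L11 (chr2:111119378-111168444, + strand, GRCh38) encodes BIM, a BH3-only protein that binds every main pro-survival protein of the family and can activate the effectors. It drew 478, 387 and 481 reads under siCTR (replicates 1, 2 and 3), against 249, 269 and 287 under siLSD1. Every siLSD1 library was below every siCTR library, and the siLSD1 libraries lay closer together than the siCTR libraries. The level was 34.2 ± 3.59 CPM in siCTR and 20.5 ± 1.67 CPM in siLSD1 (SD, n = 3 each), a fall to 0.598 of the control. The log2 fold change was −0.74 (SE 0.13, 95% interval −1.03 to −0.45, adjusted p = 0.0165, edgeR quasi-likelihood test with Benjamini-Hochberg adjustment). Of all genes tested, 110 had a more negative log2 fold change, and 21 of these were among the 44 genes called as lower. With each library left out in turn the log2 fold change stayed between −0.82 and −0.68, but the call was lost without siCTR replicate 3 (adjusted p = 0.0717), siLSD1 replicate 1 (0.0739) or siLSD1 replicate 2 (0.0769), in a range of 0.0254 to 0.0769 over the 6 fits (edgeR quasi-likelihood with Benjamini-Hochberg adjustment).

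BMF (chr15:40087890-40108892, − strand, GRCh38) encodes a BH3-only protein known for its link to the cytoskeletal motor complexes. It drew 12, 13 and 9 reads under siCTR, against 3, 3 and 2 under siLSD1. Each siLSD1 library was below each siCTR library, at a depth of 34 against 8 reads in all. The ratio of its share of reads, siLSD1 over siCTR, was 0.235 with an exact (Clopper-Pearson) 95% interval of 0.094 to 0.517, which covers counting error only and not the spread between libraries. Without the filter on low counts the log2 fold change was −2.04 (SE 0.65, adjusted p = 0.118, edgeR quasi-likelihood with Benjamini-Hochberg adjustment), so BMF was not called.

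The promoters of BCL2L11 and BMF are shown because BCL2L11 is the called member and BMF is the member with the lowest ratio. RefSeq promoter windows on GRCh38.p14, from 250 bases before to 50 bases after a start, were found for 7 of the 10 members, 14 windows in all. The windows are chr2:111120664-111120963 (+ strand) for BCL2L11 and chr15:40108830-40109129 (− strand) for the outer of 2 BMF starts, with GTAAACA and GGGCGG, on either strand, in capitals.
BCL2L11: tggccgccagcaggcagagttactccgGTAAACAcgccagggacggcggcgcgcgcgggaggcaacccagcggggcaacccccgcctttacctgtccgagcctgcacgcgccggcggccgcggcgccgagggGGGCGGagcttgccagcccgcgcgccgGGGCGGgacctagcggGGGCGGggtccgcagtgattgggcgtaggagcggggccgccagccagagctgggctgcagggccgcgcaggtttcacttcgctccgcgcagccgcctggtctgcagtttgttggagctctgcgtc
BMF: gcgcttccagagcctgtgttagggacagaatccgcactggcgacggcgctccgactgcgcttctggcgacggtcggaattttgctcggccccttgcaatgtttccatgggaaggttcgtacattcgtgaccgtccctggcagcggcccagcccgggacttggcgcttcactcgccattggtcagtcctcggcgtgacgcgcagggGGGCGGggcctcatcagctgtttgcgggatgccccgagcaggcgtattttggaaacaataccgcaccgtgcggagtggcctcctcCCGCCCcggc
GTAAACA, the core letters of forkhead factor sites, occurred 1 time in the BCL2L11 window, starting 223 bases before the start, and in none of the other 13 member windows. Of all 35116 RefSeq windows, 3.42% held it. GGGCGG, the GC box, occurred 3 times in the BCL2L11 window and 2 times in this BMF window, against 45% of all windows with at least 1 match, and in 10 of the 14 member windows. CACGTG (7.26% of all windows), ATAAACA (4.24%), which shares 6 letters with GTAAACA, and the E2F-like words TTTCCCGC (1.63%), TTTGGCGC (0.652%), TTTGGCGG (0.652%) and TTTCGCGC (0.515%) were also searched on both strands and were found in neither window. A match describes letters and not a bound site.

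BID (chr22:17734138-17774770, − strand, GRCh38) encodes the BH3-only protein that caspase-8 cleaves to carry death receptor signals to mitochondria. It drew 831, 1011 and 919 reads under siCTR, against 757, 775 and 747 under siLSD1. The siLSD1 libraries lay below the siCTR libraries, with siCTR replicate 2 the highest. The log2 fold change was −0.28 (SE 0.12, adjusted p = 0.318, edgeR quasi-likelihood with Benjamini-Hochberg adjustment), which did not pass the threshold, and −0.19 without siCTR replicate 2.

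BAD (chr11:64269830-64284704, − strand, GRCh38), a BH3-only gene whose protein is held inactive by survival kinase phosphorylation, drew 409, 677 and 475 reads under siCTR, against 458, 356 and 278 under siLSD1. The groups overlapped, siCTR replicate 2 was far above the other siCTR libraries, and siLSD1 replicate 3 was the lowest of the 6. The log2 fold change was −0.52 (SE 0.21, adjusted p = 0.276, edgeR quasi-likelihood with Benjamini-Hochberg adjustment). With each library left out it ranged from −0.70 (without siLSD1 replicate 1) to −0.27 (without siCTR replicate 2), with −0.34 without siLSD1 replicate 3, and it was −0.27 with the GC and length correction. The longest BAD transcript has 66.3% GC, the highest of the 10 members. The value for GC-rich genes was lowest in siLSD1 replicate 3, at −0.392, and was −0.033 in siCTR replicate 2, where BAD was highest. The part of GC content in the BAD values was not tested. BAD shares 404 exon bases with GPR137 on the opposite strand, and GPR137 drew 551, 602 and 491 reads under siCTR, against 593, 457 and 364 under siLSD1.

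BAK1 (chr6:33572547-33580293, − strand, GRCh38), the effector that forms pores beside BAX, drew 441, 429 and 494 reads under siCTR, against 446, 402 and 337 under siLSD1. In CPM the siLSD1 libraries were below the siCTR libraries by a narrow gap, from 33.4 in siCTR replicate 2 to 33.2 in siLSD1 replicate 1, and in FPKM, which is not TMM-scaled, they overlapped, at 14.9 and 15.2 in these libraries. The log2 fold change was −0.20 (SE 0.14, adjusted p = 0.531, edgeR quasi-likelihood with Benjamini-Hochberg adjustment), −0.08 without siLSD1 replicate 3 and −0.12 with the GC and length correction. BIK (chr22:43110750-43129712, + strand) had 26 to 40 reads in siCTR and 37 to 52 in siLSD1, overlapping between groups, and was the only tested pro-death member with a positive log2 fold change, 0.25 (SE 0.27). It was 0.06 without siCTR replicate 3 and 0.10 without siLSD1 replicate 1.

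Among the pro-survival genes, none of the 4 passed an adjusted p under 0.05 by edgeR, DESeq2 or limma-voom, and 1, BCL2L1, was below an unadjusted p of 0.05. BCL2L1 (chr20:31664452-31723989, − strand, GRCh38) drew 1324, 1271 and 1248 reads under siCTR, against 1869, 1666 and 1374 under siLSD1. Replicates 1 and 2 of siLSD1 were above every siCTR library, while siLSD1 replicate 3, at 102 CPM, was level with siCTR replicate 1. The level was 97.9 ± 4.67 CPM in siCTR and 125 ± 20.2 CPM in siLSD1 (SD, n = 3 each). The log2 fold change was 0.35 (SE 0.13, 95% interval 0.07 to 0.63, adjusted p = 0.238, edgeR quasi-likelihood with Benjamini-Hochberg adjustment). With the GC and length correction it was 0.38 and was called (adjusted p = 0.0123, edgeR quasi-likelihood with Benjamini-Hochberg adjustment), and over the 15 alternatives the adjusted p ranged from 0.00729 to 0.629 with the same direction in each. BCL2L1 makes transcripts for a long pro-survival and a short pro-death protein by splicing, and counts per gene do not separate them.

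MCL1 (chr1:150560895-150579738, − strand, GRCh38) drew 4451, 4835 and 5006 reads under siCTR, against 4849, 4670 and 5361 under siLSD1. The groups overlapped, and the log2 fold change of 0.05 had a 95% interval of −0.17 to 0.28, the narrowest of the 10 members. BCL2L2 (chr14:23298790-23311751, + strand) had 276 to 327 reads in siCTR and 255 to 345 in siLSD1, and BCL2 (chr18:63123346-63320128, − strand) had 81 to 99 and 80 to 99. Their log2 fold changes were −0.05 (SE 0.15) and 0.03 (SE 0.18), and each changed sign with some libraries left out, so no direction is given for them.

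**Figure D3:**
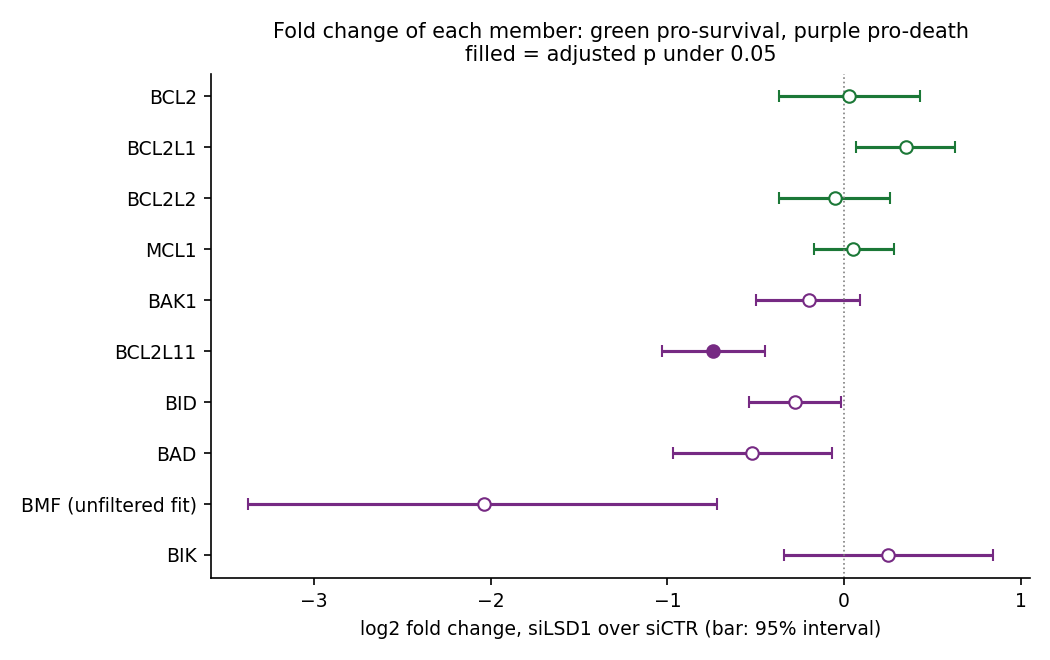
Log2 fold change of each member, siLSD1 over siCTR, with its 95% interval, pro-survival members in green and pro-death members in purple. The filled point, BCL2L11 at −0.74, is the member with an adjusted p under 0.05, and BMF comes from the fit without a filter on low counts.

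Overlapping genes may limit some of these counts, since the sources used here do not say whether counting used the strand. On the opposite strand, BCL2L1 shares 1735 exon bases with ABALON, BCL2L11 727 with MIR4435-2HG, BMF 461 with BMF-AS1 and BAK1 91 with the pseudogene GGNBP1, and MCL1 shares 328 with ADAMTSL4-AS1 on its own strand, none of these 5 with deposited counts. Besides BAD, overlaps with counted genes were found for BCL2L2 and MCL1. BCL2L2 shares 815 bases with the readthrough gene BCL2L2-PABPN1 on the same strand, which was listed with 0 to 2 reads per library, and on the opposite strand 315 with PPP1R3E (100 to 113 reads in siCTR and 91 to 112 in siLSD1) and 149 with HOMEZ (130 to 148 and 151 to 164 reads). MCL1 shares 43 bases with ADAMTSL4 on the opposite strand.

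The balance of the sides was described as the summed FPKM of the 4 pro-survival members over that of the 6 pro-death members. It was 1.77, 1.47 and 1.72 in siCTR replicates 1, 2 and 3 and 2.13, 2.23 and 2.63 in siLSD1 replicates 1, 2 and 3. Each siLSD1 library had a higher ratio than each siCTR library, with means of 1.65 ± 0.161 and 2.33 ± 0.264 (SD, n = 3 each), and no test was made because the members were chosen with results known. The pro-survival sum was 130 ± 2.32 FPKM in siCTR and 143 ± 4.04 in siLSD1, and the pro-death sum 79.2 ± 9.49 and 62 ± 8.34 (SD, n = 3 each). The pro-death genes kept with the p53 targets are outside these sums, so the ratio covers a part of the family. BAX was at a mean of 35 FPKM in siCTR and 27.6 in siLSD1, above the mean of BAD in both. PMAIP1 was at 10.8 and 12.3 FPKM and BBC3 at 2.72 and 2.51.

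The sums rest mostly on abundant genes that were not called. MCL1 made up 68.3 ± 1.94% of the pro-survival sum in siCTR and 64.8 ± 4.58% in siLSD1 (SD, n = 3 each). BCL2L1 accounted for 74% of the 12.9 FPKM by which the mean pro-survival sum was higher in siLSD1. On the pro-death side the difference in mean sum, siLSD1 minus siCTR, was −17.2 FPKM, of which BAD gave 52.2%, BID 25.3% and BCL2L11 13.1%. BMF gave 0.784%. The called member BCL2L11 thus contributed −2.26 FPKM of it, and BAD, whose groups overlapped, −8.97 FPKM. BAD was at 24, 39.2 and 26.6 FPKM in siCTR replicates 1, 2 and 3, so its difference and the pro-death shares lean on siCTR replicate 2.

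The ratio without BAD was 2.61 to 2.66 in siCTR and 3.33 to 3.72 in siLSD1. After leaving out MCL1 and BAD, the member of each side with the highest mean FPKM, it was 0.792 to 0.896 in siCTR and 1.12 to 1.33 in siLSD1. With the GC and length correction applied to the FPKM it was 1.67 to 1.84 in siCTR and 2.19 to 2.27 in siLSD1. The groups did not overlap under any of these, nor with annotated exon lengths or geometric means, while the level of the ratio depended on which members were summed.

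**Figure D4:**
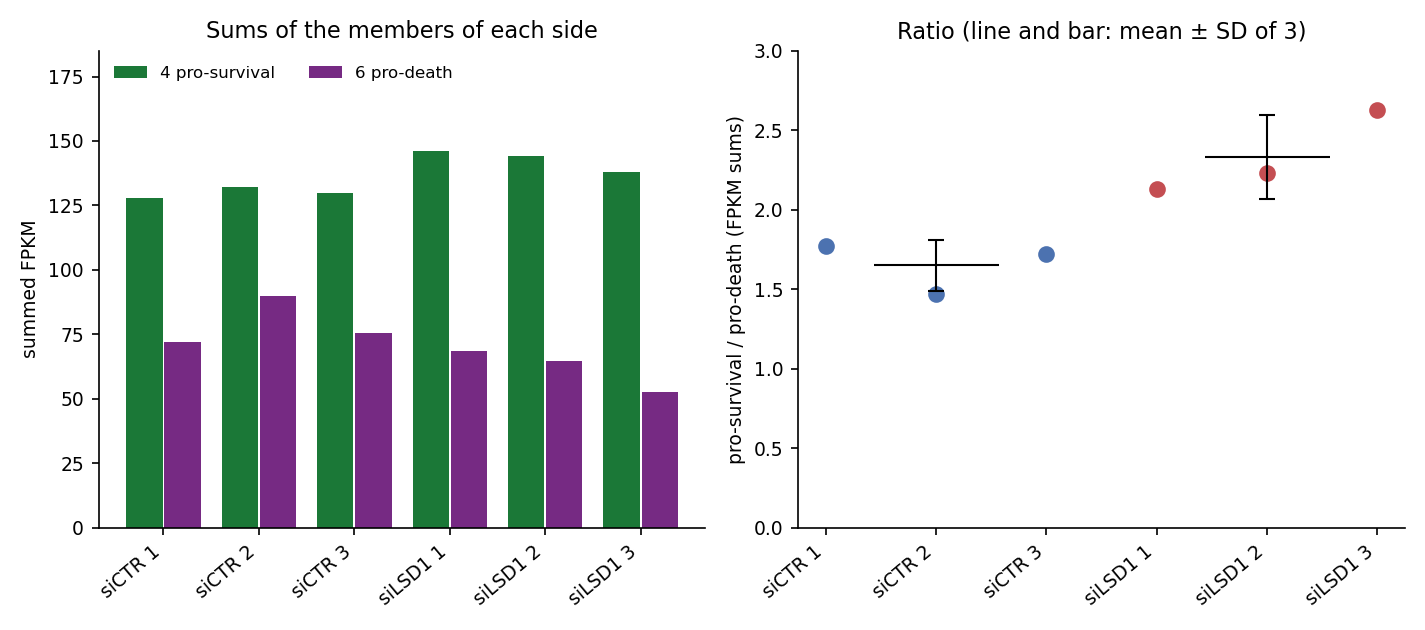
Summed FPKM of the 4 pro-survival (green) and 6 pro-death (purple) members in each library, left, and their ratio, right, with siCTR in blue, siLSD1 in red and the mean ± SD of 3 in black. The siCTR ratios lie between 1.47 and 1.77 and the siLSD1 ratios between 2.13 and 2.63.

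The family members kept with the p53 targets gave no call. BAX, the other pore-forming effector, drew 649, 744 and 546 reads under siCTR, against 615, 481 and 438 under siLSD1, with overlapping groups and a log2 fold change of −0.34 (SE 0.16, adjusted p = 0.357, edgeR quasi-likelihood with Benjamini-Hochberg adjustment), which was −0.22 without siCTR replicate 2. PMAIP1, which encodes the MCL1-binding BH3-only protein NOXA, had 271 to 332 reads in siCTR and 319 to 367 in siLSD1, a log2 fold change of 0.18 (SE 0.13), which was 0.28 with the GC and length correction, 0.29 without siCTR replicate 2 and 0.12 without siCTR replicate 1. BBC3, which encodes PUMA, had 62 to 85 and 42 to 94 reads, and its log2 fold change of −0.12 (SE 0.27) became 0.13 with the GC and length correction.

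In the rest of the apoptosis machinery, 58 genes of 5 lists were tested, and none had an adjusted p under 0.05 by edgeR, DESeq2 or limma-voom. At an unadjusted p under 0.05 by edgeR, 4 were higher and 4 were lower in siLSD1, against 7.48% and 6.55% of all genes tested, and the median log2 fold change was 0.00 with 29 genes higher and 29 lower. With the GC and length correction 4 of the 58 were called (BCL2L13, DYNLL2, FAS and MAPK9, the last named after its values were seen). In that fit, which took in 99.4% of the 11844 genes tested, 755 genes were called in all, a similar share. Of the other BCL2 family genes, 8 were tested, and BCL2L13, a mitochondrial family member, drew 891, 794 and 839 reads under siCTR, against 1074, 1060 and 1194 under siLSD1. Its siLSD1 libraries were all higher, with a log2 fold change of 0.40 (SE 0.11, adjusted p = 0.116, edgeR quasi-likelihood with Benjamini-Hochberg adjustment, and 0.0215 to 0.434 over the alternatives). BCL2L15 had 22 to 25 reads in siCTR and 10 to 28 in siLSD1, and BCL2A1 1 read in the 6 libraries together.

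Of the partners and regulators of BCL2 proteins, 23 were tested, with 2 higher and 2 lower at the unadjusted threshold. These 4 were 2, the higher genes DYNLL2 and GSK3B, without siCTR replicate 2, siCTR replicate 3, siLSD1 replicate 1 or siLSD1 replicate 2. DYNLL2, the dynein light chain that binds BMF, had a log2 fold change of 0.38 (SE 0.12), from 819 to 1133 reads in siCTR and 1175 to 1333 in siLSD1. GSK3B, a kinase that marks MCL1 for degradation, had 0.32 (SE 0.11), from 1918 to 2260 and 2559 to 2809 reads. The lower genes, named after their values were seen, were the kinase gene MAPK9, with −0.30 (SE 0.12) from 1589 to 1997 and 1438 to 1592 reads, and the mitochondrial channel gene VDAC1, with −0.24 (SE 0.11) from 6901 to 8014 and 6119 to 6514 reads.

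Of the apoptosome and caspase genes, CASP6, an executioner caspase, was lower at the unadjusted threshold, with a log2 fold change of −0.37 (SE 0.15). The list had 2 genes below this threshold with all libraries, and none without siCTR replicate 1, siCTR replicate 3 or siLSD1 replicate 3. It had 1 without siLSD1 replicate 1 or siLSD1 replicate 2, and 4 without siCTR replicate 2 or with a term for the replicate number. DIABLO, whose protein relieves caspase inhibition, had 14 to 33 reads in siCTR and 15 to 18 in siLSD1. None of the 6 tested inhibitors of apoptosis was below the unadjusted threshold, and BIRC5 and BIRC7, with the largest values, had log2 fold changes of 0.15 and −0.10, the latter 0.12 with the GC and length correction. BIRC5 was at 0.26 without siCTR replicate 2, where it was below the unadjusted threshold, and at 0.08 without siCTR replicate 3. Of 8 death receptor genes, FAS drew 116, 104 and 111 reads under siCTR, against 71, 75 and 73 under siLSD1. The groups were apart, with a log2 fold change of −0.60 (SE 0.17, adjusted p = 0.131, edgeR quasi-likelihood with Benjamini-Hochberg adjustment, and 0.0194 to 0.35 over the alternatives), and FADD, its adaptor, had −0.23 (SE 0.13), which was −0.12 with the GC and length correction and −0.11 without siCTR replicate 2.

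**Figure D5:**
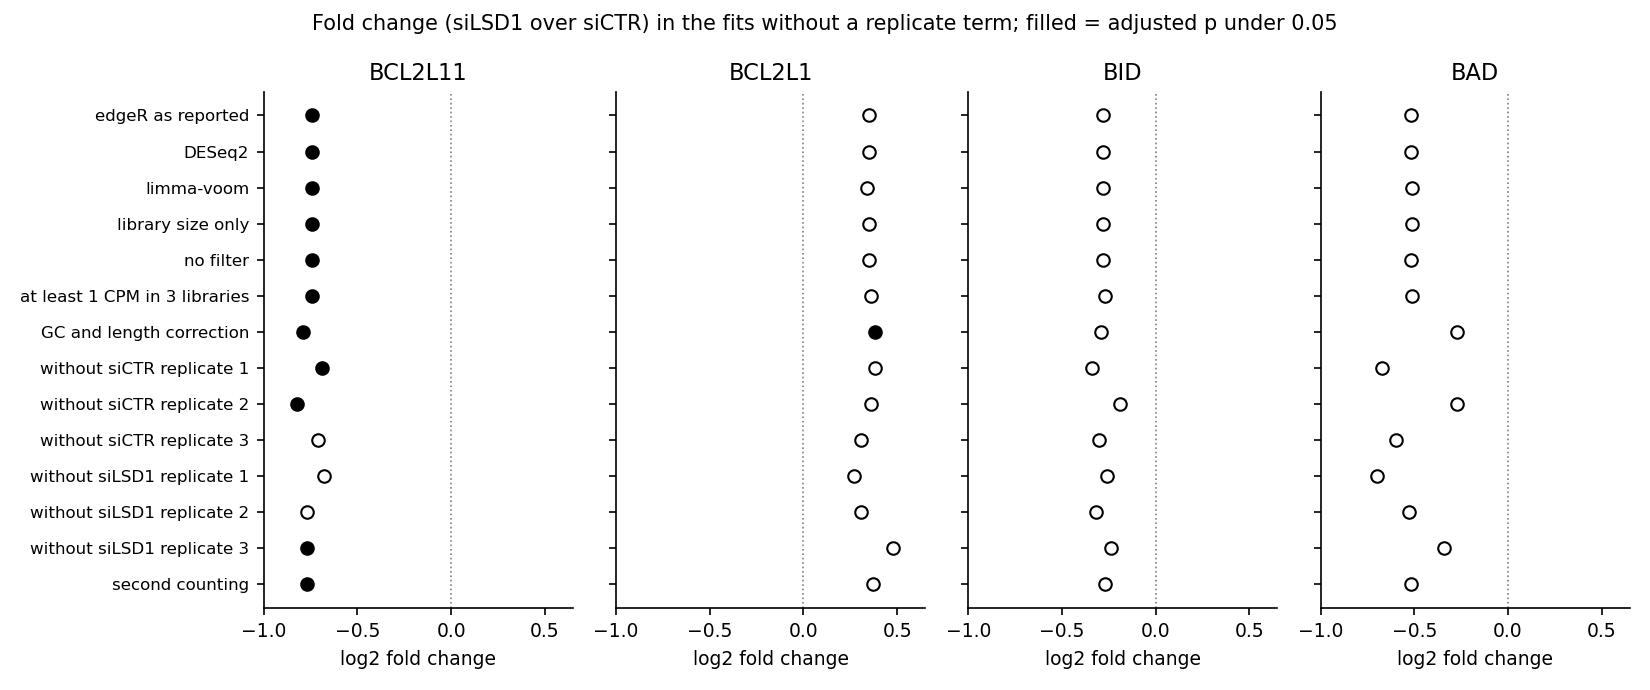
Log2 fold change of BCL2L11, BCL2L1, BID and BAD in the fits without a term for the replicate number, with filled points where the adjusted p was under 0.05. BCL2L11 stays between −0.82 and −0.68 and loses its call with 3 of the 6 libraries left out, BCL2L1 is called with the GC and length correction, and BAD moves to −0.27 with that correction or without siCTR replicate 2.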

How the data were processed

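Samples were put into groups and given replicate numbers from their labels, 3 siCTR and 3 siLSD1 libraries. Reads were aligned with STAR per the paper's methods, and the authors deposited unnormalized whole-read counts for each gene. The genome build, annotation, counter and strand setting are not given in the sources used here. The authors also deposited FPKM values, a length-scaled and depth-scaled unit, used to compare levels between genes and for the sums, ratios and differences over members. A second set of deposited counts of the same libraries, never lower than the first and with a median ratio of 1.11, served as an alternative. It came in 3 tables, each with the siCTR and the siLSD1 library of the same number. Columns with the authors' own fold changes and p-values were not used.

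The edgeR package (4.0.16, R 4.3.3) scaled counts by TMM, removed low genes with filterByExpr at its minimum count of 10, and compared siLSD1 with siCTR by the quasi-likelihood test without covariates, and p-values were adjusted over the 11844 genes tested by the Benjamini-Hochberg method. The procedure was tested on simulated data. Replicates varied by a biological coefficient of variation of 12.6%. No 2 libraries agreed within sampling noise, so none was treated as a repeat deposit of another, which does not show that they came from separate cultures. Alternatives were DESeq2 1.42.0, limma-voom (limma 3.58.1), library size scaling, no filter, at least 1 CPM in 3 libraries, a replicate term, leaving out each library, the second counts, and a lowess correction (span 0.3) for GC content and exon length from GENCODE release 44, known for 99.4% of tested genes. Ratios without BAD, GC-corrected ratios, exon-length ordering and unfiltered fits of BMF with each library left out were chosen after seeing the data. Python 3.11.15 with numpy 2.4.6, pandas 2.3.3, scipy 1.17.1 and matplotlib 3.10.9 did the rest. Coordinates are those of GENCODE release 44 on GRCh38 and not of the authors' files. In all 15363 genes matched, 14963 by symbol and 400 by an older symbol.

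The members and gene lists were chosen with earlier results of these data known. Named genes were the 10 members, KDM1A, BAX, BBC3, PMAIP1 and, from each of 5 other lists, any gene with an adjusted p under 0.05 and the 2 with the largest absolute log2 fold change at a mean of at least 1 CPM. Other named genes were chosen after their values were seen. Some results for single genes of the lists are not reported here.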

Additional observations from a re-analysis of the deposited data

How the results depend on the processing

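BCL2L11 was lower in siLSD1 under all 15 alternatives, and its call was lost only in the fits without siCTR replicate 3, siLSD1 replicate 1 or siLSD1 replicate 2. The number of members called was 2 with the GC and length correction and 0 to 1 with each library left out. The number of genes called, 171, was 323 with DESeq2, 290 without a filter, 755 with the GC and length correction and 58 to 136 with each library left out. Libraries whose removal changed it by more than 1.5 times were siCTR replicate 2 (88), siCTR replicate 3 (58), siLSD1 replicate 1 (71) and siLSD1 replicate 2 (60).

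The replicate numbers were not taken to pair the libraries, since the correlations of same-numbered libraries' deviations were 0.328, 0.074 and 0.310 and not all above 0.1. Each library correlated best with the library of its own number, which is a hint from the data and not from the design. The second counts were deposited in tables that set same-numbered libraries side by side, and the labels do not say what the number marks. With a replicate block 897 genes and 3 members (BCL2L1, BCL2L11 and BAD) were called, and with the block and the GC and length correction 1107 genes and 3 members (BCL2L1, BCL2L11 and BID). The log2 fold change of BAD was −0.51 with the block, and −0.25 with the block and the correction, where BAD was not called.

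Signs turned for values near 0. BCL2 was −0.06 with the GC and length correction, −0.07 with that and the block, and −0.06 to 0.13 with each library left out, and BCL2L2 was −0.17 to 0.03. BBC3 was 0.13 and 0.14 with the correction alone and with the block, and −0.39 to 0.15 with each library left out, and BIRC7 was 0.12 in both corrected fits and −0.23 to 0.11 with each library left out. BMF, fitted without a filter, was −2.20 to −1.86 with each library left out.

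The mean pro-survival to pro-death ratio, 1.65 in siCTR and 2.33 in siLSD1, was 1.39 and 1.95 with annotated exon lengths, 0.836 and 1.22 without MCL1 and BAD, and 2.64 and 3.49 without BAD. The cause of these changes was not tested, except that fewer libraries or members enter by construction. Depth limits BMF, with 2 to 13 reads per library.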

Other observations

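Some genes of the apoptosis lists had few or no counted reads in either group. MTCH2, which encodes the mitochondrial receptor of truncated BID, had 1 read in the 6 libraries together, and DIABLO had 14 to 33 reads per library. The annotation, counter and strand setting are not given, so reads lost in counting and low expression cannot be told apart here. BCL2L10, BCL2L14 and NAIP were not found by symbol among the genes with deposited read counts, so they were not analysed here. HUWE1, the gene of a ubiquitin ligase that acts on MCL1, drew 17387, 9037 and 16290 reads under siCTR (replicates 1, 2 and 3), against 17161, 15332 and 18330 under siLSD1, so siCTR replicate 2 was far below the other 5 libraries. ITPR3, an endoplasmic reticulum calcium channel regulated by BCL2 proteins, drew 6923, 3806 and 6496 reads under siCTR, against 6847, 5522 and 6052 under siLSD1, with the same library lowest. The same library was lowest for ITPR1 (1545, 893 and 1600 reads under siCTR) and BIRC6 (2512, 1517 and 2627). It was highest for BAD (409, 677 and 475), BAX (649, 744 and 546) and DYNLL1 (3251, 4366 and 3537). So the deviation was not particular to HUWE1 and ITPR3, and the part of gene length in it was not tested. These genes were chosen after their values were seen.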
